A study of Zea mays with 18 samples.

Results

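The response of maize (Zea mays) to iron deficiency was compared between roots and shoots, as the change in roots minus the change in shoots. The comparison rests on RNA-seq libraries of the inbred W22, a wild-type line. It uses 12 of the 18 libraries of the study: iron-deficient roots, iron-deficient shoots, iron-sufficient roots and iron-sufficient shoots, with 3 biological replicates each. All plants grew in hydroponic culture for 12 days. Deficient plants (-Fe) were then without iron for 3 days and sufficient plants (+Fe) stayed with iron. Both then received fresh solution of the same kind, and organs were frozen 24 hours later. A further 6 libraries, of roots and shoots from deficient plants that were given iron for those last hours (resupplied plants), did not enter the comparison and are used below for description. The labels do not say how many plants a replicate pooled, nor whether root and shoot libraries that share a number came from the same plants. The p-values below therefore measure the spread between these samples.

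Grasses such as maize acquire iron by chelation. Their roots release phytosiderophores, which are made from nicotianamine and bind ferric iron in the soil, and transporters of the Yellow Stripe family bring the complexes into root cells. Shoots do not take up iron from the medium but use much of it, above all in chloroplasts, where iron cofactors serve photosynthetic electron transport and chlorophyll synthesis depends on iron. Deprivation therefore meets a different task in each organ, and the study's title adds strigolactones, carotenoid-derived hormones released by roots, to the question. The deposited files do not pair their gene identifiers with names: of the 40690 identifiers, 0 were found in a B73 name table of 49888 genes. No gene of these pathways could be followed by name, no function is given below, and the organ labels could not be checked against marker genes.

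Root libraries held 63058129 to 78431980 estimated counts and shoot libraries 69390438 to 82616272. After the filter on low counts, 27542 genes were tested. Levels are given in CPM, counts scaled to a common depth after TMM scaling. A gene was taken as measured well in both organs when its mean was at least 1 CPM over the 6 deficient and sufficient root libraries and over the 6 such shoot libraries, which 21073 genes met. For a gene under this limit in an organ, a change in that organ is poorly measured, so the other 6469 genes are described apart. Nearest to the limit, the organ with the lower mean had 1 CPM in the last gene inside and 0.9997 CPM in the first gene outside.

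Roots and shoots differed in their response to iron deficiency at 289 of the genes measured well in both organs, or 1.37%, in edgeR's quasi-likelihood test of the interaction at an adjusted p under 0.05. The root response was higher than the shoot response at 229 of them (1.09% of these genes) and lower at 60 (0.285%). The median difference between the 2 responses was 1.02 on the log2 scale for the 229 genes, with quartiles of 0.80 and 1.43, and -0.95 for the 60 genes, with quartiles of -1.13 and -0.75. Over all genes tested, well measured or not, 334 were called (1.21%), 258 higher (0.937%) and 76 lower (0.276%). Over all 21073 genes the median was 0.01. The difference was at least 2-fold in 120 of the 229 and 25 of the 60, and at least 4-fold in 24 and 2. Across the 21073 genes the root and shoot log2 changes correlated weakly, with a Pearson r of 0.10. This is a description across genes, which share the 12 libraries and are not independent.

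**Figure D1:**
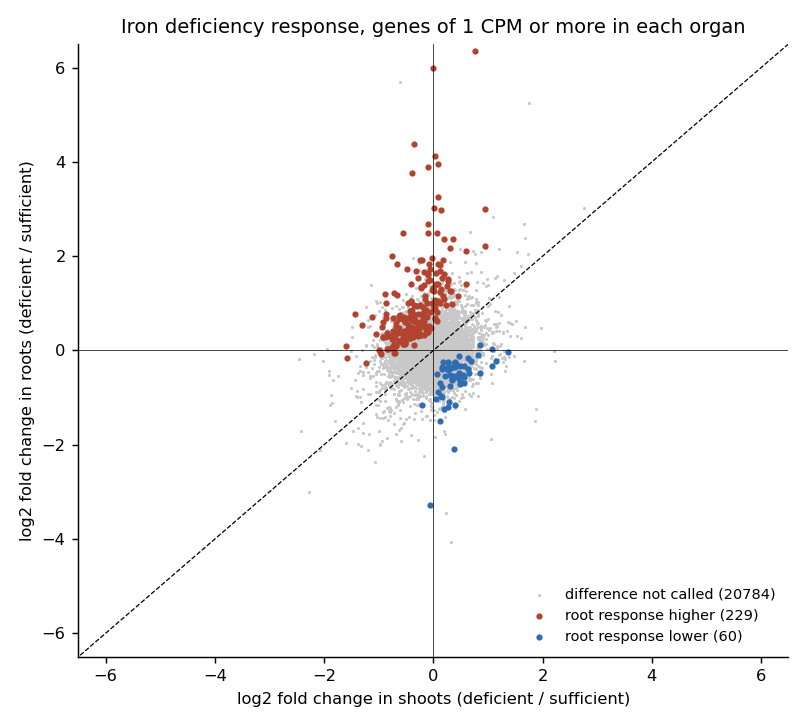
Log2 fold change of each gene measured well in both organs, deficient over sufficient, in shoots (horizontal axis) and roots (vertical axis); the dashed line marks equal responses. The 229 genes with a higher root response lie above the line and mostly left of or near 0 for shoots, the 60 with a lower root response lie below it, and 4 genes without a called difference fall outside the axes.

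The number of calls rested on single libraries, and the excess of higher over lower root responses was nearly gone without 1 of them. Among the well-measured genes, 159 were called without sufficient root library 1, 175 without sufficient root library 2, 133 without deficient root library 1 and 187 without deficient root library 2. Without sufficient shoot library 1 or 3 there were 160 and 162 calls, and without deficient shoot library 1, 2 or 3 there were 172, 120 and 144. Without deficient root library 3 there were 691, of which 360 were higher and 331 lower. That library lay farthest from the other libraries of its group, at a median absolute distance of 0.18 on the log2 scale, against 0.114 to 0.164 for the other 11. The split between higher and lower also depends on the scaling. With total counts in place of TMM, the median organ difference over all genes moved to -0.235 and 168 well-measured genes were higher and 1225 lower; directions below are relative to the TMM scale. DESeq2 called 850 higher and 347 lower, and a term for the replicate number left 135 and 16.

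In the main fit, more of the called differences came with a change called in roots than with one called in shoots. Of the 229 genes with a higher root response, 137 rose in deficient roots with no call in shoots, with a median log2 change of 1.01 in roots and -0.14 in shoots. Another 50 fell in deficient shoots with no call in roots, where the medians were 0.21 in roots and -0.70 in shoots. For 33 neither organ's change passed the test on its own, and the medians were 0.40 in roots and -0.46 in shoots. Of the 60 genes with a lower root response, 29 fell in roots with no call in shoots, at medians of -0.69 and 0.22. A further 11 rose in shoots with no call in roots, at medians of -0.16 in roots and 0.82 in shoots, and 19 had no call in either organ, at -0.48 and 0.46. The 2 responses had opposite signs in 173 of the 229 genes, or 75.5%, and in 56 of the 60, or 93.3%. Over all well-measured genes this share was 50.3%, and a difference between 2 changes is by its form larger where their signs differ. The root change was the larger in size in 158 of the 229 (69%) and 40 of the 60 (66.7%), against 50.8% of all well-measured genes.

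**Figure D2:**
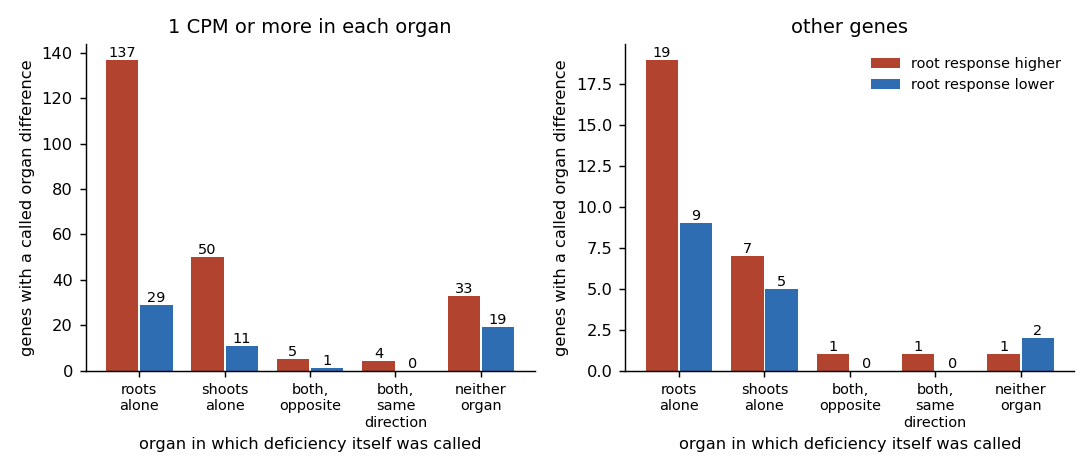
Number of genes with a called organ difference (vertical axis), split by the organ in which deficiency itself was called (horizontal axis), for genes measured well in both organs (left) and the other genes (right), with red bars for a higher and blue bars for a lower root response. In both panels the tallest red bar is the one for genes called in roots alone, at 137 and 19 genes.

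A missing call in an organ is not evidence that the gene stayed level there. The same fit called 402 well-measured genes higher (1.91%) and 194 lower (0.921%) in deficient against sufficient roots, and 55 higher (0.261%) and 192 lower (0.911%) in deficient against sufficient shoots. Over all genes tested it called 719 genes in roots (2.61%) and 286 in shoots (1.04%), whereas fits of each organ alone called 683 in roots and 1152 in shoots. Which organ had more calls thus depended on the fit. Shoots also had more in limma, with 1463 against 1052 in roots, and with total-count scaling, with 1532 against 784. In all other alternatives roots had more, as in DESeq2 with 1656 against 1393 in shoots. The calls in roots were 482 higher and 237 lower, but 411 and 373 with total-count scaling and 501 and 551 without deficient root library 3. Those in shoots were 74 higher and 212 lower, but 1361 and 171 with total-count scaling. The count for roots was 464 without sufficient root library 2 and 368 and 455 without deficient root library 1 or 2. That for shoots was 67 to 184 when any shoot library or deficient root library 1 was left out. The well-measured genes called in roots alone, 166 with the organ difference in either direction, numbered 180 with limma, which gave each organ its own weight, 272 with total-count scaling, 107 without sufficient root library 1, 90 without deficient root library 1, 377 without deficient root library 3, and 84 and 104 without deficient shoot library 2 or 3. Their split of 137 higher and 29 lower became 97 and 175 with total-count scaling and 171 and 206 without deficient root library 3.

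The genes that changed in an organ were for the most part not shown to differ from the other organ. Of the 402 well-measured genes that rose in deficient roots, 146 (36.3%) had a called organ difference, against 1.37% of all such genes; the 2 shares are not independent, since the root change is part of the difference. Their median log2 change was 0.82 in roots and 0.06 in shoots. Of the 402, 20 were also called higher in shoots, where 0.261% of all well-measured genes were. Their shoot change was above 0 in 242 (60.2%), against 10844 of all 21073 well-measured genes. Of the 194 that fell in roots, 30 (15.5%) had a called difference, at medians of -0.69 in roots and -0.07 in shoots. Of these 194, 15 were also called lower in shoots, where 0.911% of all well-measured genes were. Their shoot change was below 0 in 110 (56.7%), against 10229 of all 21073. Of the 55 that rose in shoots, 16 (29.1%) had a called difference, with medians of 0.33 in roots and 0.78 in shoots. Of the 192 that fell in shoots, 55 (28.6%) had one, with medians of -0.05 in roots and -0.69 in shoots. The genes were chosen by their change in an organ, which favours large values there.

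Called changes in both organs were few among the well-measured genes with an organ difference. They are named here although their choice followed sight of their values. The called root response was opposite to the called shoot response in 6 of the well-measured genes. In 5 of these, deficiency raised the level in roots and lowered it in shoots: Zm00004b003317, Zm00004b014620, Zm00004b015097, Zm00004b032188 and Zm00004b032552. Zm00004b032552 had 30.2, 34.2 and 30.8 CPM in deficient roots and 12.9, 12.5 and 15.3 CPM in sufficient roots. In shoots it had 2.69, 2.60 and 2.58 CPM under deficiency and 4.16, 3.88 and 4.94 CPM under sufficiency. The deficient and sufficient libraries did not overlap in either organ, with the higher level on the deficient side in roots and on the sufficient side in shoots. Over all well-measured genes, 20.3% did not overlap in roots and 25.5% in shoots. The genes named here were chosen by calls on the same values, so a lack of overlap adds no support. The log2 change of Zm00004b032552 was 1.22 ± 0.12 in roots and -0.72 ± 0.13 in shoots (SE), a difference of 1.94 (adjusted p = 0.00036). The differences of the other 4 genes ranged from 1.2 to 1.54.

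Zm00004b032188 combined a low root level with a very high shoot level. It had 26.1, 28.6 and 27.2 CPM in deficient roots and 15.6, 18.6 and 20.2 CPM in sufficient roots. Its level was 1060, 1100 and 1010 CPM in deficient shoots and 1750, 1610 and 1750 CPM in sufficient shoots. Again the groups of an organ did not overlap, and the shift was upward in roots and downward in shoots, by 0.59 ± 0.11 and -0.69 ± 0.11 on the log2 scale (SE, n = 3 per group; difference 1.28, adjusted p = 0.0028). In the opposite sense, 1 gene, Zm00004b040123, fell in roots and rose in shoots. It had 12.8, 11.5 and 13.9 CPM in deficient roots and 20.1, 17.9 and 18.7 CPM in sufficient roots. In deficient shoots it had 21.3, 19.9 and 23.4 CPM, and in sufficient shoots 14.0, 16.1 and 14.0 CPM. Deficiency thus turned round which organ held more of this transcript (difference -1.12, adjusted p = 0.0049). The organ difference of all 6 genes stayed called in each of the 23 alternative fits that were run. The pattern as a whole, with the root call, the shoot call and the difference together, held in fewer: in 16 for Zm00004b032552, 15 for Zm00004b032188, 13 for Zm00004b040123, 12 for Zm00004b015097, 11 for Zm00004b003317 and 10 for Zm00004b014620.

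In 4 of the well-measured genes, deficiency raised the level in both organs, and by more in roots: Zm00004b001672, Zm00004b005141, Zm00004b019462 and Zm00004b027295. Their rise in roots was called in each of the 23 alternative fits, and that in shoots in 14, 15, 13 and 17 of them in that order. Zm00004b005141 had 209, 215 and 227 CPM in deficient roots and 24.5, 23.2 and 34.0 CPM in sufficient roots. In shoots it had 590, 498 and 496 CPM under deficiency and 359, 243 and 220 CPM under sufficiency. Its shoot level stayed above its root level in both conditions, but the gap narrowed, since its log2 change was 2.99 ± 0.20 in roots and 0.95 ± 0.19 in shoots (SE; difference 2.05, adjusted p = 0.0033). Zm00004b019462 had a log2 change of 2.10 ± 0.12 in roots and 0.59 ± 0.12 in shoots (difference 1.51, adjusted p = 0.0015). The differences of Zm00004b001672 and Zm00004b027295 were smaller, at 0.70 and 0.81 (adjusted p = 0.022 and 0.032). Their called differences did not hold in 8 and 9 of the 23 alternative fits, with adjusted p of up to 0.065 and 0.092. Both were lost without sufficient root library 1 or 2, deficient root library 1, sufficient shoot library 3 or deficient shoot library 2 or 3. Zm00004b001672 also lost its call without deficient shoot library 1 and with a term for the replicate number (adjusted p = 0.064), and Zm00004b027295 without deficient root library 2 or sufficient shoot library 1 and with total-count scaling (0.051).

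By the rule for naming, the genes with the largest organ difference and at least 10 CPM in a group are given with every library. The largest higher root response among the well-measured genes was that of Zm00004b031513. It had 97.1, 91.5 and 45.1 CPM in deficient roots and 0.956, 0.824 and 1.90 CPM in sufficient roots. Its level in shoots was 2.61, 4.33 and 4.85 CPM under deficiency and 3.40, 4.24 and 4.13 CPM under sufficiency. The root groups lay far apart, although deficient root library 3 was well below the other two, and the shoot groups overlapped. The log2 change was 5.99 ± 0.41 in roots (SE, adjusted p = 9.6e-06) and 0.00 ± 0.37 in shoots, and the difference was 5.99 ± 0.51 (adjusted p = 0.00026). In resupplied plants it stood at 4.26 ± 2.48 CPM in roots and 4.60 ± 0.451 CPM in shoots (SD, n = 3).

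Zm00004b018725 followed, with 22.4, 20.1 and 18.4 CPM in deficient roots and 0.286, 0.364 and 0.0903 CPM in sufficient roots. In shoots, where it is far more abundant, it had 74.9, 57.9 and 66.8 CPM under deficiency and 42.4, 36.5 and 38.9 CPM under sufficiency. The groups did not overlap in either organ and were higher under deficiency in both, but the shoot change did not pass the test. The log2 change was 6.34 ± 0.27 in roots (SE, adjusted p = 2.7e-07) and 0.76 ± 0.19 in shoots (adjusted p = 0.083), a difference of 5.58 ± 0.33 (adjusted p = 1.1e-05). In sufficient plants its root mean was 0.246 CPM and its shoot mean 39.2 CPM. Resupplied plants had 0.346 ± 0.203 CPM in roots and 15.2 ± 2.40 CPM in shoots (SD, n = 3), so the shoot level there lay under that of both other shoot groups.

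The largest lower root response among these genes was that of Zm00004b022755. It had 1.28, 1.28 and 1.16 CPM in deficient roots and 13.7, 11.2 and 11.1 CPM in sufficient roots. In shoots it had 0.914, 1.56 and 0.785 CPM under deficiency and 1.19, 1.37 and 0.815 CPM under sufficiency. Deficient roots were thus about level with shoots, while sufficient roots stood clearly above them, and the shoot groups overlapped. Its log2 change was -3.27 ± 0.28 in roots (SE, adjusted p = 6.9e-05) and -0.06 ± 0.28 in shoots (adjusted p = 0.97), a difference of -3.21 ± 0.39 (adjusted p = 0.0024). Resupplied roots had 12.4 ± 2.58 CPM and resupplied shoots 1.41 ± 0.44 CPM (SD, n = 3).

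Zm00004b022054 was next, with 0.552, 0.421 and 0.531 CPM in deficient roots and 3.29, 1.09 and 2.06 CPM in sufficient roots. It met the limit of 1 CPM in roots through the sufficient libraries, with a mean of 2.15 CPM there and 0.502 CPM in deficient roots. In shoots it had 49.8, 65.2 and 62.7 CPM under deficiency and 42.0, 52.4 and 41.7 CPM under sufficiency. The root groups did not overlap, and the shoot groups did. The difference was -2.48 ± 0.43 on the log2 scale (SE, adjusted p = 0.02), made of -2.10 ± 0.34 in roots and 0.38 ± 0.26 in shoots. It was no longer called without deficient root library 1 (-2.56, adjusted p = 0.051) or 2 (-2.36, 0.053), without deficient shoot library 2 (-2.41, 0.051), in limma (-2.33, 0.14) or with a term for the replicate number (-2.46, 0.054). The differences of the 3 genes before it were called in every alternative fit, between 5.76 and 6.45 for Zm00004b031513, between 5.20 and 5.97 for Zm00004b018725 and between -3.45 and -2.86 for Zm00004b022755.

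**Figure D3:**
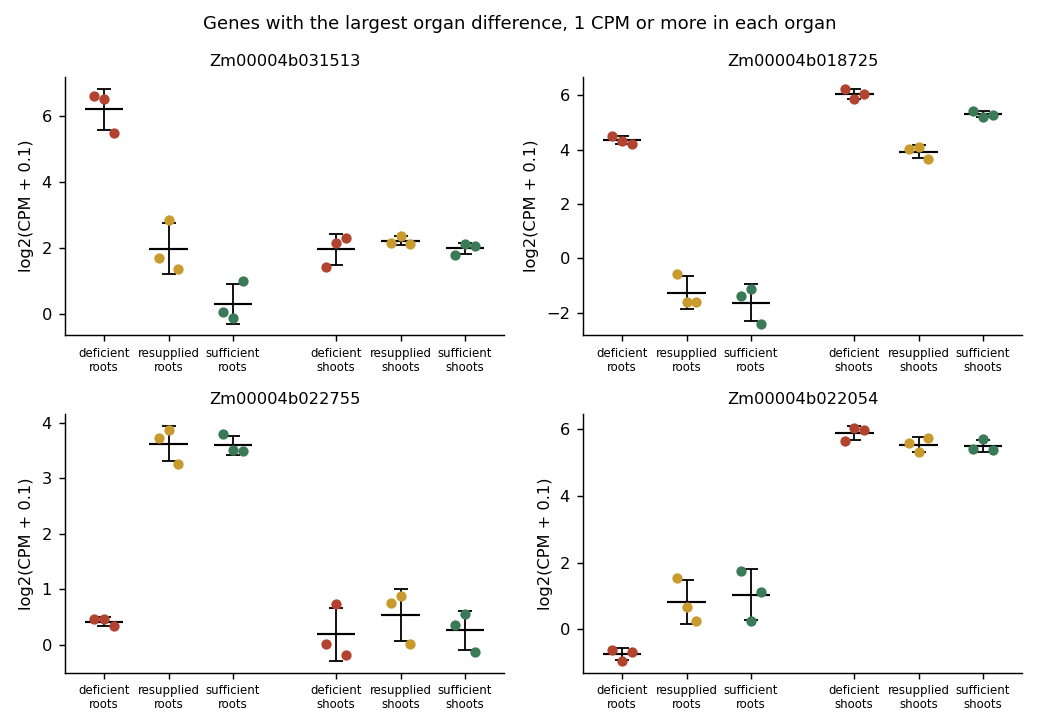
Level of 4 genes in each library as log2(CPM + 0.1) (vertical axis), for deficient, resupplied and sufficient roots and shoots (horizontal axis); points are libraries, and the bar and whiskers are their mean and SD (n = 3). In roots the deficient libraries stand above the sufficient ones in the upper 2 panels and below them in the lower 2, and in shoots the deficient and sufficient libraries lie closer together.

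Deficiency changed which organ held the higher level for a part of these genes. Roots held more than shoots in 143 of the 229 genes with a higher root response under deficiency and in 101 under sufficiency, and 42 genes passed from a shoot to a root excess. Of the 60 genes with a lower root response, roots held more in 10 under deficiency and in 39 under sufficiency, and 29 passed from a root to a shoot excess. Over all 21073 well-measured genes, roots held more in 10540 under deficiency and in 10988 under sufficiency. Of the 21073, 1123 passed to a root excess and 1570 to a shoot excess. The counts for the called genes follow partly from how those genes were called. The median log2 ratio of root to shoot level of the 229 was 0.94 in deficient plants, 0.13 in resupplied plants and -0.29 in sufficient plants. That of the 60 was -0.69 in deficient, -0.27 in resupplied and 0.13 in sufficient plants. In both sets the median of the resupplied libraries, which had no part in the calls, lay between those of the other conditions. The genes were chosen for a difference between deficient and sufficient plants. Libraries left out of that choice can lie between them for this reason alone, so nothing is read from this order. Taken gene by gene, the resupplied ratio was nearer to the sufficient than to the deficient one in 129 of the 229 (56.3%) and 29 of the 60 (48.3%), against 47.5% of all well-measured genes.

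**Figure D4:**
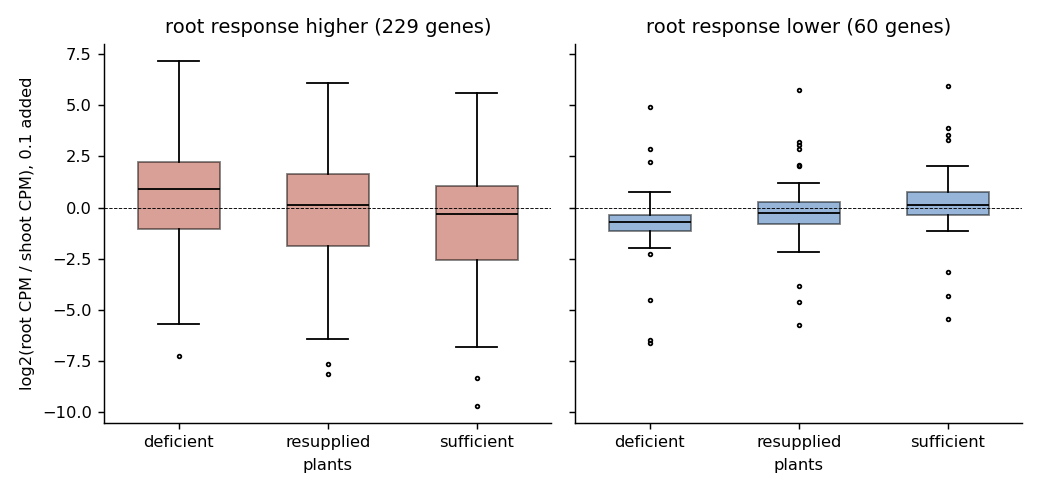
Log2 ratio of root to shoot level after adding 0.1 CPM (vertical axis) in deficient, resupplied and sufficient plants (horizontal axis), for the genes with a higher (left) and a lower (right) root response; boxes give the median and quartiles over genes, whiskers reach 1.5 times the box and points are genes beyond. The medians run 0.94, 0.13 and -0.29 on the left and -0.69, -0.27 and 0.13 on the right.

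Organ preference was taken from the resupplied libraries, as a mean CPM at least 8-fold above that in the other organ once 0.1 CPM had been added to each. Of the 229 genes with a higher root response, 21 (9.17%) were root-preferring and 33 (14.4%) shoot-preferring, against 2.18% and 4.60% of the well-measured genes. Of the 60 with a lower root response, 3 (5%) were root-preferring and 3 (5%) shoot-preferring. A gene can reach the limit of 1 CPM in an organ through its level under deficiency alone, as Zm00004b018725 did in roots, with 20.3 CPM in deficient roots against 0.246 CPM in sufficient roots. Of the 33 shoot-preferring genes, 7 (21.2%) were under 1 CPM in sufficient roots, against 3.09% of all 970 shoot-preferring well-measured genes. The limit thus sets these shares in part, and nothing is read from them. The median level of the 229 was 30.2 CPM in roots and 35.4 CPM in shoots, above the 18.4 and 19.8 CPM of all well-measured genes, and the share of genes called was larger at higher levels. It was 1.11% where the lower organ mean was from 1 to 2 CPM, 1.25% from 2 to 10, 1.46% from 10 to 100 and 1.71% above 100 CPM. The 24 root-preferring genes numbered 15 without deficient root library 1 and 15 without deficient shoot library 2, and 37 (29 higher, 8 lower) without deficient root library 3. With total-count scaling 20 were higher and 14 lower.

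Among the other 6469 genes, those under 1 CPM in an organ, 45 (0.696%) differed, 29 with a higher (0.448%) and 16 with a lower root response (0.247%). The 45 became 28 without deficient root library 1 and 83 without deficient root library 3. Of the 29, 19 rose in deficient roots with no call in shoots, and 7 fell in deficient shoots with no call in roots. Of the remaining 3, 1 rose in roots and fell in shoots, 1 fell in both organs and 1 had no call in either. Of the 16, 9 fell in roots and 5 rose in shoots, each with no call in the other organ, and 2 had no call in either. Of all 6469, 1.24% rose and 0.665% fell in roots, and 0.294% rose and 0.309% fell in shoots. Part of these calls compare a trace with nothing. In 9 of the 29 and 9 of the 16 genes, at least 1 of the 4 groups had no count in any of its 3 libraries. This was so in 1451 of all 6469 genes. In genes with an empty group the fitted fold change depends on the prior count. A ratio to a floor of 3 counts over the empty group is therefore given instead. The floor covers counting error in the empty group only, and only if each count is a separate read pair. Low counts piled up at multiples of 4, so a read pair may add more than 1 count. In that case the floor is too low and the ratios to it are too large. The mean of the other group and the shoot ratio enter as measured, without their error, so the ratio is not a strict lower bound.

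The 2 genes with a call in both organs were chosen after their values were seen. Zm00004b031156 had 39.1, 42.8 and 35.4 CPM in deficient roots and 10.2, 15.9 and 15.3 CPM in sufficient roots. In shoots it had 0.379, 0.605 and 0.418 CPM under deficiency and 1.02, 0.97 and 1.09 CPM under sufficiency. The groups did not overlap in either organ. Over all 6469 genes of this set, 17.8% did not overlap in roots and 15.8% in shoots. The log2 change of Zm00004b031156 was 1.5 ± 0.18 in roots and -1.14 ± 0.23 in shoots (SE), a difference of 2.65 (adjusted p = 0.0015). Its difference stayed called in all 22 alternative fits that tested it, and all 3 calls together held in 12. Zm00004b017658 had 12.6, 17 and 15.4 CPM in deficient roots and 24, 24.2 and 27 CPM in sufficient roots. It had no count in deficient shoots and a trace of 0.14, 0.246 and 0.136 CPM in sufficient shoots. Both organs were lower under deficiency, and the organ difference (adjusted p = 0.012) was lost in limma (0.13), in the fit of all 18 libraries (0.11) and with counts divided by 4 (0.09). All 3 calls together held in 7 of its 22 alternative fits.

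A large change from near absence in 1 organ was seen in Zm00004b019773. It had 19.2, 16.7 and 12.4 CPM in deficient roots and 0.348, 0.0606 and 0.258 CPM in sufficient roots. In shoots it stayed at trace level, with 0.300, 0.303 and 0.101 CPM under deficiency and 0.263, 0.385 and 0 CPM under sufficiency. The root groups were far apart, and the shoot groups overlapped. The difference was 6.09 ± 1.07 on the log2 scale (SE, adjusted p = 0.02), and 6.18 ± 0.74 in roots alone. The call was lost without deficient root library 1 (5.94, adjusted p = 0.056), without sufficient shoot library 1 (5.95, 0.06) or 2 (5.35, 0.073) and in limma (5.35, 0.13). In resupplied plants the level was 0.36 ± 0.337 CPM in roots and 0.306 ± 0.068 CPM in shoots (SD, n = 3).

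The other 3 genes that the naming rule gave here are shoot genes with a trace in roots. Zm00004b003713 had 8.16, 8.20 and 8.71 CPM in deficient shoots and 11.7, 9.76 and 9.75 CPM in sufficient shoots. Its counts in deficient root libraries were 6, 3 and 12, and all 3 sufficient root libraries had 0. Its mean level in deficient roots was 7.56 times the floor. With its shoot ratio of 0.805, the responses differed 9.39-fold against that floor (adjusted p = 0.032). This call was lost without sufficient root library 1 or 2, deficient root library 1, sufficient shoot library 1 or 3 or any deficient shoot library, at adjusted p of 0.059 to 0.069, and likewise in limma (0.14), with a term for the replicate number (0.076) and with counts divided by 4 (0.071).

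Zm00004b039982 had 32.7, 42.8 and 40.4 CPM in deficient shoots and 26.9, 38 and 28.3 CPM in sufficient shoots. Deficient root libraries all had 0 counts, and sufficient ones had 33, 8 and 49. Its mean level in sufficient roots was 29.7 times the floor, and the responses differed 36.9-fold against that floor (adjusted p = 0.027). Its call was lost without sufficient root library 1, deficient root library 1 or 2, sufficient shoot library 1 or 3 or deficient shoot library 2 or 3, at adjusted p of 0.059 to 0.066, in limma (0.18) and with a term for the replicate number (0.075). Zm00004b023744 had 116, 130 and 109 CPM in deficient shoots and 133, 142 and 152 CPM in sufficient shoots. Its counts were 0 in each deficient root library and 48, 43 and 28 in the sufficient ones. Its mean level in sufficient roots was 38.5 times the floor. With a shoot ratio of 0.834, the responses differed 32.1-fold against that floor (adjusted p = 5e-04). This call held in each of its 22 alternative fits.

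Traces of shoot transcripts occurred in all root libraries. The 100 most abundant shoot genes among those at least 100-fold higher in shoots than in roots of resupplied plants summed to 0.148, 0.198 and 0.299% of their shoot level in deficient root libraries 1 to 3. In sufficient root libraries 1 to 3 they summed to 0.168, 0.209 and 0.762%, so library 3 held the most. The mean sufficient root level of Zm00004b023744 was 0.347% of its shoot mean, with counts of 48, 43 and 28 in libraries 1 to 3. For Zm00004b039982 it was 1.22%, with counts of 33, 8 and 49. For Zm00004b003713 the mean deficient root level was 1.13% of the shoot mean, with counts of 6, 3 and 12. These shares are means over a group, whereas the sums above are of single libraries. In the other direction, 100 root genes at least 100-fold higher in roots summed to 0.305, 0.194 and 0.169% of their root level in deficient shoot libraries 1 to 3. In sufficient shoot libraries 1 to 3 they summed to 0.167, 0.158 and 0.46%. Zm00004b017658 had means of 0.174 CPM in sufficient shoots and 25.1 CPM in sufficient roots. The part of such traces in these calls, and in the shoot call of Zm00004b017658, was not tested.

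**Figure D5:**
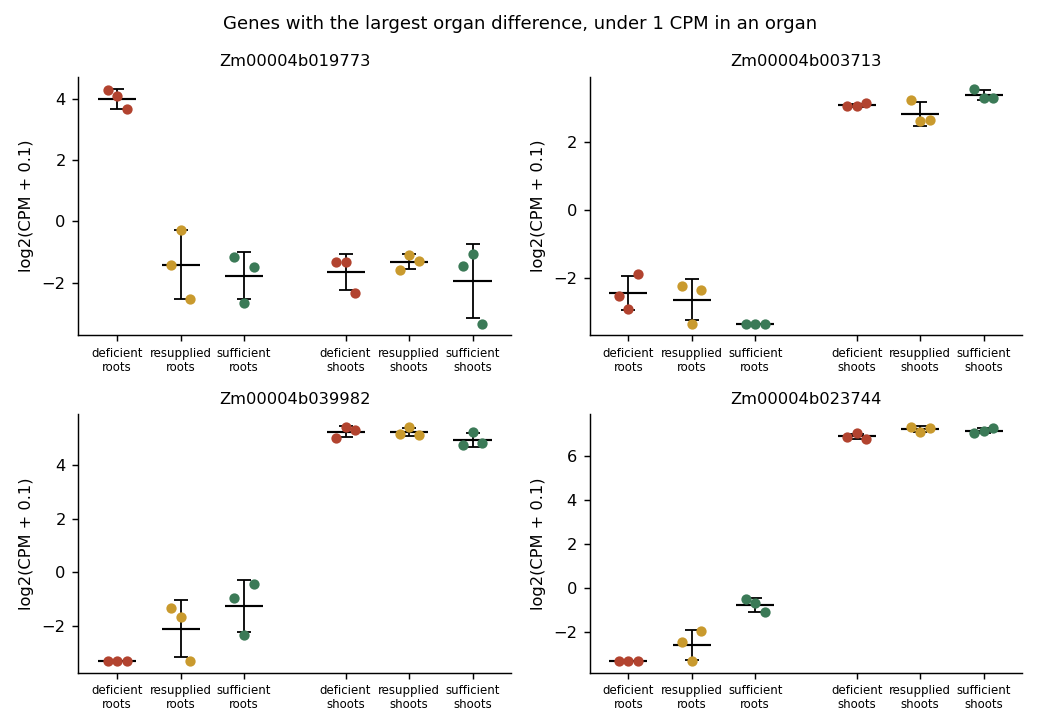
Level of 4 genes under 1 CPM in an organ, in each library, as log2(CPM + 0.1) (vertical axis), for deficient, resupplied and sufficient roots and shoots (horizontal axis); points are libraries, and the bar and whiskers are their mean and SD (n = 3). Zm00004b019773 is high in deficient roots alone. In the other 3 panels the shoots are high and the roots far lower, with all libraries of 1 root group at 0 CPM.

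The authors' deposited tables hold a comparison of deficient with sufficient plants for each organ, made from the same samples, so they are no independent evidence. Taking their root minus their shoot log2 fold change, the sign was that of the test here in 228 of the 229 and 60 of the 60 well-measured genes. Among the other genes it was the same in 26 of 29 and 16 of 16. Over all well-measured genes with a value in both of the authors' deposited tables, 48.4% had a difference above 0. In the authors' deposited tables, Zm00004b031513 has log2 fold changes of 1.81 in roots and -0.02 in shoots, and Zm00004b018725 has 4.24 and 0.73. Those tables give 1.28 in roots and 0.03 in shoots for Zm00004b019773, and -2.64 and -0.09 for Zm00004b022755. For Zm00004b022054 they give -1.16 in roots and 0.33 in shoots. The root changes of these genes are smaller in size there than in the fit here. In the same order, that fit gave 5.99, 6.34, 6.18, -3.27 and -2.10. The reason was not tested. The changes of the 3 genes with a root group at 0 are small in the authors' deposited tables and do not reach the ratios to the floor given above. There Zm00004b003713 has 0.11 in roots, with no adjusted p, and -0.19 in shoots. Zm00004b039982 has -0.4 in roots, with no adjusted p, and 0.3 in shoots in the authors' deposited tables. Zm00004b023744 has -0.42 in roots (adjusted p = 0.071 in the authors' deposited tables) and -0.23 in shoots.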

How the data were processed

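Per the submitters' processing notes, reads were processed with Trim Galore, HISAT2, StringTie and DESeq2; no version, and neither the build nor the annotation, is given in the sources used here. The authors deposited 1 table of estimated counts for 40690 genes per library. These were whole numbers, so rounding changed 0 values. Of counts from 1 to 40, 29.3 to 33% were multiples of 4, where 25% would be with no pile-up, so a read pair may add more than 1 count. The authors also deposited comparison tables that hold, per the file headers, log2 fold changes with standard errors, the Wald score, its p-value and the adjusted value; those of deficient against sufficient roots and shoots were used.

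Counts were tested with edgeR 4.0.16 (R 4.3.3): filterByExpr, TMM, the quasi-likelihood F-test with the 4 groups as the only term, and Benjamini-Hochberg adjustment over all 27542 genes. Standard errors were derived from F. Printed CPM used TMM over all 18 libraries. The steps were tested on simulated counts. Alternatives used limma 3.58.1, DESeq2 1.42.0, other scalings and filters, a term for the replicate number, and each library left out.

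Genes were named by rule: per set and direction, the 2 largest differences among calls with at least 10 CPM in a group. The genes called in both organs were added after their values were seen. The comparison, rules and alternatives were chosen with earlier results of these data known.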

Additional observations from a re-analysis of the deposited data

Results flagged for a closer look

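The difference between organs, tested as an interaction, passed the threshold at 334 genes in all, 258 with a higher and 76 with a lower root response. Among the genes named by rule, the difference between the root and shoot log2 changes was 5.99 for Zm00004b031513, 5.58 for Zm00004b018725, 6.09 for Zm00004b019773, -3.21 for Zm00004b022755 and -2.48 for Zm00004b022054. Where a root group had no counts, the difference has an adjusted p of 0.032 for Zm00004b003713, 0.027 for Zm00004b039982 and 5e-04 for Zm00004b023744 (edgeR). With 3 libraries per group, no test for a single deviating library was made.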

How the results depend on the processing

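Against 334 calls in all, DESeq2 gave 1518, total-count scaling 1520 (215 higher, 1305 lower), the fit of all 18 libraries 608 and the replicate block 177, of which 170 were among the 334. The replicate block adds a term shared by same-numbered libraries, whereas the main fit is unpaired. Same-numbered libraries of different groups had correlations of -0.13 to 0.10 in their deviations from the group means. Libraries with different numbers reached 0.14, so no pairing by number was seen. Whether a number marks shared plants is not known. Leaving out 1 library gave 155 to 774. Well-measured calls (289) were 1197 with DESeq2, 1393 with total counts, 438 when only those genes were tested, 547 with 18 libraries, 151 with the block and 120 to 691 without 1 library. Calls among the other genes (45) were 321 with DESeq2, 127 with total counts, 12 with limma, 26 with the block, 28 and 103 with limits of 0.5 and 5 CPM for measured well, and 28 to 83 without 1 library. Deficiency calls in roots (719) were 1656 with DESeq2 and 368 to 1052 without 1 library. Those in shoots (286) were 1393 with DESeq2, 1532 with total counts, 1463 with limma, 519 with 18 libraries, 109 with the block, 510 with counts divided by 4, 1152 with shoots alone (a fit added after seeing the data) and 67 to 348 without 1 library. Well-measured differences called in roots alone (166) were 508 with DESeq2, 272 with total counts, 257 with 18 libraries, 108 with the block and 84 to 377 without 1 library. Root-preferring calls (24) were 65 with DESeq2, 37 when only well-measured genes were tested and 15 to 37 without 1 library. The share of lower root responses, 22.8% of calls, was 33.2% in DESeq2 and 85.9% with total counts. The causes were not tested. Of 454 values of the 20 named genes under alternatives, 405 kept their called organ difference, 49 kept the direction without it and 0 reversed. The 20 were chosen by their calls and the alternatives refit the same libraries, so these counts are no independent support. Of all 334 calls, 140 were kept without deficient shoot library 2, the fewest when 1 library was left out. The most, 324, were kept without deficient root library 3.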
